A study of Mus musculus with 2 samples.

Results

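The transcripts of 10 NF-kappaB genes were followed in donor T cells of the mouse colon during graft-versus-host disease, the attack of grafted T cells on the tissues of the recipient. The 10 genes were set by name, as transcription factor subunits and feedback inhibitors of 1 pathway, and all 10 were present among the 31053 genes of the RNA matrix. Recipients were Balb/c mice given lethal irradiation, 5000000 bone marrow cells of the C57BL/6 (B6) strain and B6 splenocytes that held 800000 alpha beta T cells. On day 21 the colons of 5 mice were dissociated and pooled, and H2-Kb+ TCR-beta+ cells, which are donor T cells, were sorted and run as 1 droplet RNA library with 10x 5' v2 chemistry, beside a T cell receptor (TCR) library of the same cDNA. No untransplanted or syngeneic control was analysed here, so every comparison is between cells of 1 pool. The titles name CD4 T cells, but the sort did not select on CD4 and most sorted cells with lineage transcripts carried Cd8a or Cd8b1.

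NF-kappaB factors are dimers of Rel family proteins that wait in the cytoplasm, bound by IkappaB proteins. Signals from the T cell receptor, from co-stimulatory receptors and from receptors of the TNF and IL-1 families activate kinases that have the IkappaB destroyed, and the freed dimers enter the nucleus. Among the genes they switch on there are several of their own inhibitors, which limits the response in time, and in T cells the pathway is known for driving cytokine transcription, survival and proliferation after activation.

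Of the 10 members, 7 had a promoter window in the RefSeq table used (GRCm38.p6, 250 bases before to 50 bases after a transcript start), and the kappaB consensus, searched on both strands, was found in a window of 5 of them: Nfkb2, Rel, Nfkbia, Nfkbid and Tnfaip3. Over all windows of that length 2779 of 32851 (8.46%) held a match, and counted by gene, as for the members, 2581 of 27025 genes (9.55%) had at least 1 window with a match. All stretches with a match are printed here because this is the sequence that NF-kappaB dimers are known to bind. Each is 30 bases, 5′ to 3′ on the strand of the gene, with the match in capitals. The Nfkb2 and Rel stretches that have 11 capitals hold 2 matches that overlap.
Nfkb2, 39 bases before the start, chr19:46304688-46304717 (+): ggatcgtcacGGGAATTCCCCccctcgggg
Nfkb2, 11 bases before the start, chr19:46304716-46304745 (+): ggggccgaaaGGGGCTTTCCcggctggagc
Nfkb2, 236 bases before a second start, chr19:46305449-46305478 (+): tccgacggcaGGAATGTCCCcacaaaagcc
Nfkb2, 225 bases before another start and in 2 windows that overlap, chr19:46305695-46305724 (+): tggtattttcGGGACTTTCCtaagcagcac
Rel, 92 bases before the start, chr11:23771042-23771071 (-): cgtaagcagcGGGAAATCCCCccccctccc
Nfkbia, 29 bases before the start, chr12:55492657-55492686 (-): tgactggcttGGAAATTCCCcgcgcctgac
Nfkbid, 226 bases before the start, chr7:30422170-30422199 (+): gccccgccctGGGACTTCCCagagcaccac
Nfkbid, 181 bases before the start, chr7:30422215-30422244 (+): gggccgaacaGGAATTCCCCgtgcgcgggg
Tnfaip3, 125 bases before the start, chr10:19015516-19015545 (-): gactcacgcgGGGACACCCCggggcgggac
Tnfaip3, 12 bases before the start, chr10:19015403-19015432 (-): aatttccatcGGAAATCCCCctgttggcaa
For Nfkb2 the matches lie in all 3 of its windows. For Nfkbid they lie in 1 of its 3 windows, and the start named above is a later transcript start, inside the gene. The window of its earliest start held no match. For Tnfaip3 they lie in 1 of 2 windows. The windows of Rela and Birc3 held no match. A match describes letters only, and no binding was measured here.

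Over 5348 cell barcodes, 32772424 UMI counts (unique molecular identifiers) were deposited, from 2549 to 39138 per barcode, and 5333 barcodes were kept. The CD4 class, with Cd4 UMIs and none of Cd8a or Cd8b1, held 1861 cells with a median of 4768 UMIs. The CD8 class, with the opposite pattern, held 2391 cells with a median of 4910. T cell receptor and CD3 genes were detected in 99.6% of kept cells, whereas the B cell gene Cd79a had no UMI in any. Macrophage genes were detected in 54.3% of CD4 class and 57.2% of CD8 class cells at a low summed level, 2.79 and 2.39 UMIs per 10000, and 159 barcodes with at least 3 of the 12 macrophage genes are called macrophage-transcript barcodes below. A level here is the sum of UMIs of a gene over a class per 10000 UMIs of that class. Ranges after a level or a ratio are 95% intervals (exact Poisson or exact conditional binomial) and cover counting error only. The pool is 1 sample and cells are not replicates, so no p-value was computed, and a member is counted as higher or lower at 1.5-fold. Levels are not ranked between genes, since the yield of a 5' assay per transcript is not known.

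All 10 members had a ratio above 1 in the CD4 class over the CD8 class, and 4 of them reached 1.5-fold: Nfkb1, Nfkbid, Nfkbiz and Rel. Of 10130 genes with 50 or more UMIs over both classes, 7.92% were 1.5-fold or more higher in the CD4 class and 7% lower. The median log2 ratio was 0.50 over the members and -0.04 over all genes. The members thus lay above the run of genes as a group, with a range of ratios from 1.16 to 2.24.

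Among the factors, Nfkb1 (chr3:135584655-135691547), which encodes p105 and its product p50, had the widest gap. Its level was 1.57 in the CD4 class (1.5 to 1.64) and 0.700 in CD8 class cells (0.658 to 0.744), a ratio of 2.24 (2.08 to 2.42). After each cell was thinned to 2000 UMIs, 25.2% of CD4 class and 12% of CD8 class cells had an Nfkb1 UMI, against 50.2% and 28.9% without thinning. Rel (chr11:23736847-23770970), the c-Rel subunit known for its part in lymphocyte activation, stood at 2.26 (2.17 to 2.35) and 1.49 (1.43 to 1.56), a ratio of 1.51. The remaining subunits were closer between the classes. Nfkb2 (chr19:46304320-46312385), the p100 precursor of the non-canonical arm, stood at 1.53 and 1.10, 1.39-fold apart. Relb (chr7:19606217-19629438), the usual partner of the Nfkb2 product, stood at 1.73 and 1.30, 1.33-fold apart. Rela (chr19:5637483-5648130), the p65 subunit, was nearest to even at 0.926 (0.871 to 0.985) and 0.796 (0.751 to 0.843), a ratio of 1.16 (1.07 to 1.27).

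The 3 IkappaB genes differed among themselves in the same comparison. Nfkbid (chr7:30421732-30428746), a nuclear IkappaB protein that binds p50 and is induced by TCR signals, stood at 2.24 (2.15 to 2.33) in the CD4 class and 1.05 (1.0 to 1.11) in the CD8 class, a ratio of 2.13 (2.0 to 2.27). Nfkbiz (chr16:55811375-55838899), the nuclear protein IkappaB-zeta, known as a co-activator of secondary response genes, stood at 5.10 (4.97 to 5.24) and 3.17 (3.08 to 3.26), a ratio of 1.61. Nfkbia (chr12:55489410-55492647), which encodes IkappaB-alpha, the inhibitor that takes dimers back out of the nucleus, stood at 16.7 (16.4 to 16.9) and 12.4 (12.2 to 12.5), a ratio of 1.35. It was detected in 85.2% of CD4 class and 74.9% of CD8 class cells after thinning (94.3% and 89.2% without), so its transcripts were present in most cells of both classes. The intervals of the classes did not overlap for any of the 3 genes.

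Both members that act on ubiquitin were less than 1.5-fold apart. Tnfaip3 (chr10:19000910-19015657), which encodes A20, an enzyme that edits ubiquitin chains upstream of the kinases, stood at 7.24 (7.08 to 7.40) in the CD4 class and 6.01 (5.89 to 6.14) in the CD8 class, a ratio of 1.2. Birc3 (chr9:7848699-7873186), which encodes the ubiquitin ligase cIAP2, stood at 1.59 and 1.10, a ratio of 1.44 (1.35 to 1.54). With 1 cell drawn per clonotype (327 CD4 and 346 CD8 class cells) all 10 log2 ratios remained above 0, and that of Rel was 0.28 in place of 0.60.

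**Figure D1:**
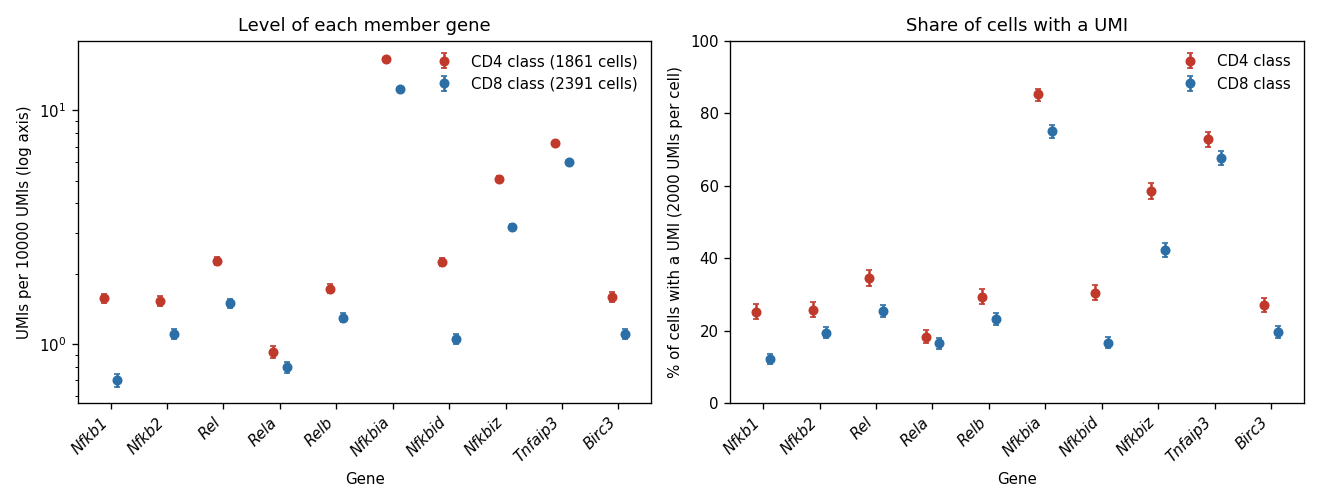
Levels of the 10 members in UMIs per 10000 UMIs on a log axis (left) and shares of cells with a UMI after thinning to 2000 UMIs per cell (right), in CD4 class (red) and CD8 class (blue) cells. Points are class values and bars are 95% intervals for counting error; the CD4 class lies above the CD8 class for each member, with Nfkb1 at 1.57 against 0.700 and Rela at 0.926 against 0.796.

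The parts of the pathway that surround the members differed unevenly between the classes. Among 22 kinases and adaptors, only Traf1 (1.60-fold) and Map3k14 (1.80-fold), the kinase of the non-canonical arm, were 1.5-fold or more higher in the CD4 class. None was lower, and the median log2 ratio was 0.01. Of 15 measured receptors, 7 were higher and 1 was lower, with a median of 0.51. The widest were Il1r1, the IL-1 receptor, at 17.1-fold, Tnfrsf25 at 8.64-fold, Il1rl1 at 6.77-fold and Tnfrsf4, which encodes OX40, at 5.59-fold (10.7 against 1.92 UMIs per 10000). Of 15 other inhibitors and feedback genes 2 were higher and 1 was lower, with Zfp36l1 at 1.77-fold, Nfkbie at 1.55-fold and the deubiquitinase gene Otulin at 0.620. Of 21 measured target genes, 10 were higher and 3 lower. Cd83 was 3.40-fold and Gadd45b 2.06-fold higher in the CD4 class, while the chemokine genes Ccl3 and Ccl4 stood at 0.485 and 0.343 of their CD8 class level. Of 10 early TCR response genes, 4 were higher and none was lower by that measure, with Egr3 at 3.81-fold, Egr2 at 3.54-fold, Nr4a3 at 1.89-fold and Nr4a1 at 1.58-fold, while Myc (0.668) and Nr4a2 (0.694) had ratios below 1. Of 16 genes known to respond to tissue dissociation, 6 were higher and none was lower, with Atf3 at 3.55-fold and Junb at 1.86-fold, while Hspa1a stood at 0.969. Their part in the members' differences was not tested.

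Csf2, which encodes the cytokine GM-CSF, was detected in 192 CD4 class cells after thinning, and these cells had more transcripts of the nuclear IkappaB genes and of Nfkb1 and Rel than the 1669 CD4 class cells without it. The members 1.5-fold or more higher were Nfkbid, Rel, Nfkbiz and Nfkb1, 4 of 10, against 6.81% of 8916 genes higher and 11.1% lower. The member median log2 ratio was 0.39, and that of all genes -0.07. The median depths of the positive and negative cells were 4789.5 and 4768 UMIs.

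Nfkbid stood at 3.92 (3.57 to 4.28) in Csf2-positive and 2.04 (1.95 to 2.13) in Csf2-negative CD4 class cells, a ratio of 1.92 (1.74 to 2.13). Rel stood at 3.47 (3.15 to 3.82) and 2.11 (2.02 to 2.20), a ratio of 1.65. Nfkb1 stood at 2.31 (2.04 to 2.59) and 1.48 (1.40 to 1.56), a ratio of 1.56. No other factor had an interval above 1: Nfkb2 had a ratio of 1.15 (0.995 to 1.33) and Rela one of 1.09 (0.896 to 1.32). Relb was on the other side of even, at 1.5 against 1.76, a ratio of 0.855 (0.730 to 0.996). Nfkbiz stood at 7.62 and 4.79, a ratio of 1.59 (1.48 to 1.7), and Nfkbia at 23.5 and 15.8, a ratio of 1.48 (1.42 to 1.54). Tnfaip3 and Birc3 did not follow the IkappaB genes, with ratios of 1.04 (0.974 to 1.12) and 1.02 (0.873 to 1.18). With 1 cell drawn per clonotype (48 positive and 280 negative cells) only Nfkbid of the 10 members stayed past 1.5-fold, and Nfkb1, Nfkbiz and Rel stood at log2 ratios of 0.18, 0.24 and 0.51.

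In the CD8 class only 31 cells were Csf2-positive, against 2360 negative cells, so the intervals are wide. Of the 10 members 6 were 1.5-fold or more higher, but in so small a class 15.9% of 9344 genes were higher and 23.8% lower. Nfkbid stood at 3.65 (2.85 to 4.59) against 1.02, a ratio of 3.58 (2.79 to 4.54), and Nfkb1 at 1.93 (1.36 to 2.64) against 0.684, a ratio of 2.82 (1.98 to 3.89). Nfkbiz followed at 1.89-fold, Nfkbia at 1.84-fold, Rel at 1.75-fold and Nfkb2 at 1.53-fold. Tnfaip3 had a ratio of 1.40 (1.19 to 1.63). The intervals of Birc3, Relb and Rela held 1. When the top cell was dropped for each gene in turn, the count was 4, with Nfkb2 and Rel at log2 ratios of 0.43 and 0.57. Without cells that had an Nr4a1 UMI only 3 Csf2-positive cells were left and the count was 2, with Nfkb2 and Nfkbia at log2 ratios of -0.18 and -0.84. In Csf2-positive cells the levels of Nfkbid (3.92 in the CD4 class and 3.65 in CD8 class cells) and Nfkbia (23.5 and 22.5) were alike within their intervals, so the wider CD8 ratios come with lower levels in the Csf2-negative CD8 cells.

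Tnf, which encodes the cytokine TNF, was detected in 166 CD4 class and 127 CD8 class cells after thinning, and here no factor reached 1.5-fold in either class, while Nfkbid did in both. In the CD4 class 1 of 10 members, Nfkbid, was 1.5-fold or more higher, with 6.02% of all genes higher and 7.25% lower. Nfkbid stood at 3.99 (3.60 to 4.42) in Tnf-positive and 2.08 (1.99 to 2.17) in Tnf-negative cells, a ratio of 1.92 (1.71 to 2.14). Nfkbia stood at 22.6 and 16.1, a ratio of 1.40 (1.34 to 1.47). Nfkbiz followed at 1.30 (1.19 to 1.41) and Tnfaip3 at 1.24 (1.15 to 1.33). With 1 cell per clonotype Nfkbia and Nfkbiz stood at log2 ratios of 0.088 and 0.080, in place of 0.489 and 0.374. Tnfaip3 stood at -0.075 without thinning, in place of 0.308. Without cells that had an Nr4a1 UMI, Nfkbiz and Tnfaip3 were higher, at 0.840 and 0.834. The ratios of the 5 factors ran from 0.860 for Nfkb1 to 1.22 for Rela and each interval held 1, as did that of Birc3. The count of 1 rested on how the class was set: without thinning 0 members passed, with Nfkbid at a log2 ratio of 0.56. It also rested on the cells compared, since 4 passed without cells that had an Nr4a1 UMI, which left 31 Tnf-positive cells.

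In the CD8 class 3 of 10 members were 1.5-fold or more higher in Tnf-positive cells, all of them IkappaB genes, with 7.81% of all genes higher and 10.3% lower. Nfkbid stood at 1.86 (1.56 to 2.20) against 1.01, a ratio of 1.84 (1.53 to 2.19). Nfkbia stood at 19.3 (18.3 to 20.3) against 12, a ratio of 1.61 (1.52 to 1.7), and Nfkbiz at 4.77 against 3.09, a ratio of 1.55 (1.38 to 1.72). Tnfaip3, at 8.58 against 5.88, had a ratio of 1.46 (1.34 to 1.58). The 5 factors had ratios from 0.845 for Rela to 1.2 for Rel, and each interval held 1. The count of 3 rested on how the Tnf class was set, since 0 members passed without thinning or with classes set at 1000 UMIs. It also rested on the cells compared, since 0 passed without cells that had an Nr4a1 UMI, which left 34 Tnf-positive cells.

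**Figure D2:**
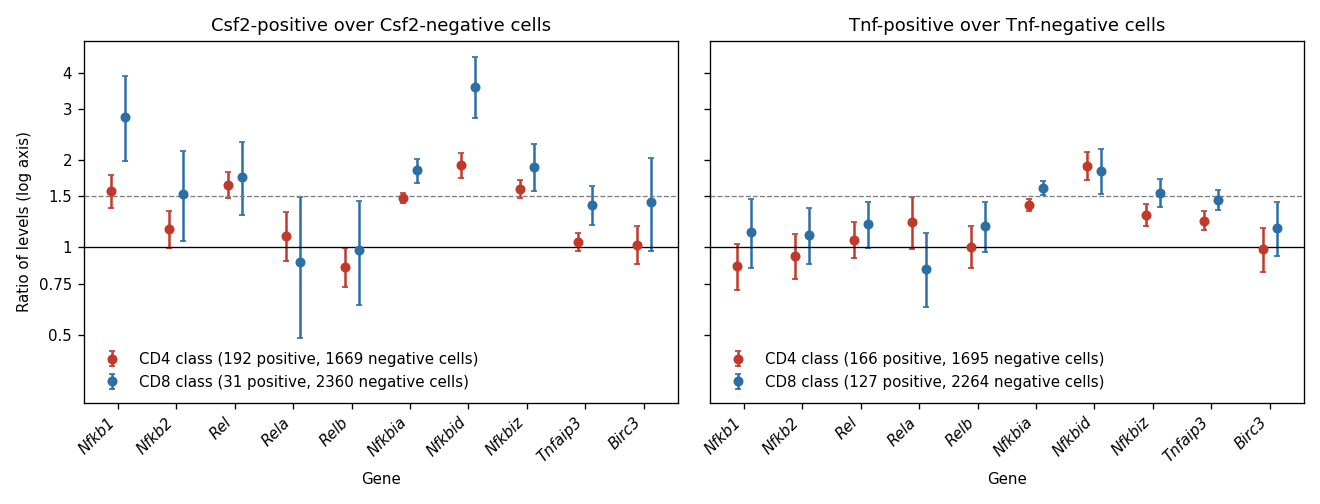
Ratio of the level in Csf2-positive over Csf2-negative cells (left) and in Tnf-positive over Tnf-negative cells (right) for each member, on a log axis, in CD4 class (red) and CD8 class (blue) cells; bars are 95% counting intervals, the solid line is 1 and the dashed line 1.5. Nfkb1 and Rel lie above 1 on the left and near 1 on the right, whereas Nfkbid lies near 1.9 for CD4 class cells on both sides.

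The Csf2 and Tnf comparisons share most of their negative cells, and 24 CD4 class cells were positive for both. In these 24 cells Nfkbid stood at 9.75 (8.28 to 11.4). It stood at 3.03 (2.71 to 3.38) with Csf2 alone (168 cells), at 2.80 (2.45 to 3.20) with Tnf alone (142 cells) and at 1.97 (1.88 to 2.06) with neither (1527 cells). Nfkbia gave the same order, at 35.4 (32.5 to 38.4), 21.7, 19.99 and 15.5. The classes positive for both and for neither were thus the highest and lowest for both genes, and for Nfkbid the single-positive classes overlapped. The cell with most Nfkbid UMIs held 16.7% of those of the 24 cells. Of the 24 cells 3 were macrophage-transcript barcodes, against 33 of the 1527 cells with neither, and their part in the levels was not tested. Nfkb1 did not follow, at 1.69 (1.11 to 2.46) with both, 2.40 with Csf2 alone, 1.30 with Tnf alone and 1.49 with neither. The number of Tnf UMIs gave a like order: 31 CD4 class cells with 2 or more Tnf UMIs had Nfkbid at 8.56 (7.16 to 10.1) and Nfkbia at 31.4 (28.6 to 34.3), against 3.09 and 20.9 in 135 cells with 1 Tnf UMI. In the CD8 class the corresponding levels were 2.71 (1.83 to 3.87) and 26.4 (23.5 to 29.7) in 25 cells, and 1.71 (1.40 to 2.06) and 18.0 (17.0 to 19.1) in 102 cells.

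Several other measures moved with these classes. Tnf-positive cells were shallower than Tnf-negative ones, at a median of 4260 against 4825 UMIs in the CD4 class and 4209 against 4923.5 in the CD8 class. In the CD4 class the 12 macrophage genes summed to 6.85 in Tnf-positive cells (all 12 detected, 0 to 265 per cell) and 2.41 in Tnf-negative cells (all 12 detected, 0 to 272 per cell). In Csf2-positive CD4 class cells 11 of the 12 were detected, with Adgre1 at 0, and their sum was 5.06 (0 to 165 per cell) against 2.51 in Csf2-negative cells (0 to 272 per cell). In the CD8 class the sums were 2.09 against 2.41 for Tnf and 1.22 against 2.41 for Csf2. Without macrophage-transcript barcodes, the log2 ratio of Nfkbid was 0.88 for Csf2 and 0.94 for Tnf in the CD4 class, where all cells gave 0.94 and 0.94. Csf2 was unevenly spread over the clusters described below, from 0 to 22.1% of cells, while Tnf was found in 4.50 to 10.6% of cells in every cluster. The part of free RNA in the Tnf class was not tested.

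Early TCR response and dissociation genes also differed between these classes. In Csf2-positive CD4 class cells 8 of 10 early TCR genes were higher, with a median log2 ratio of 1.0, led by Egr3 (9.87-fold), Egr2 (5.34-fold), Myc (2.56-fold) and Egr1 (2.49-fold). In Tnf-positive CD4 class cells 6 of 10 were higher, with a median of 0.82 and Egr3 at 12-fold (7.57 to 19.0). In Tnf-positive CD8 class cells 3 of 8 measured genes were higher, with a median of 0.56 and Egr1 at 3.14-fold. In the 31 Csf2-positive CD8 class cells 7 of 8 were higher, with a median of 0.83, but there 15.9% of all genes were higher and 23.8% lower. Dissociation genes were higher for 8 of 16 and 9 of 16 in the Tnf-positive CD4 and CD8 classes, among them Hspa1a at 2.5-fold and 2.57-fold. With Csf2 they were higher for 6 of 16 in the CD4 class and 10 of 16 in the CD8 class, where 1 was lower. NF-kappaB target genes were higher for 7 of 21 with Csf2 in the CD4 class, where Ccl3 stood at 9.73-fold, Cd83 at 4.53-fold and Ccl4 at 4.28-fold, and for 5 of 21 with Tnf, where Ier3 stood at 5.48-fold. Ier3 is also among the dissociation genes, and with Tnf in the CD8 class its ratio was 1.13 (0.716 to 1.71). The gene lists share other genes, among them Egr1, Myc, Zfp36 and Traf1, so their counts are not separate. Of 14 measured receptor genes 2 were higher and 5 lower with Csf2 in the CD4 class, with a median log2 ratio of -0.41. Tnfrsf9, which encodes 4-1BB, stood at 4.33 against 1.69 UMIs per 10000 and Il1rl1 at 1.99-fold, whereas Il1r1 and the TNF receptor gene Tnfrsf1a had ratios of 0.272 and 0.524. Kinases and adaptors stayed near even, with 2 of 22 higher and 1 lower for Csf2 and 0 of 22 either way for Tnf in the CD4 class.

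Nr4a1, a gene induced by TCR signals, was used to divide the cells, with levels by division added after the data were seen. In both lineage classes the IkappaB genes were higher in cells that had an Nr4a1 UMI. Nfkbid stood at 2.48 in 1464 CD4 class cells with Nr4a1 and 1.08 in 397 without, a ratio of 2.30 (1.99 to 2.67), and at 1.25 and 0.532 in 1563 and 828 CD8 class cells, a ratio of 2.34 (2.03 to 2.72). For Nfkbiz the ratios were 1.78 and 1.77, for Nfkbia 1.55 and 1.55, and for Nfkb1 1.62 and 1.59. Tnfaip3 differed little, at 1.10 (1.03 to 1.17) and 1.06 (1.01 to 1.11). Cells with an Nr4a1 UMI were also deeper, at a median of 4995.5 against 4107 UMIs in the CD4 class and 5370 against 4183.5 in the CD8 class, which raises the chance of such a UMI.

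The Tnf comparison was repeated within that division. Among CD8 class cells with Nr4a1 (93 Tnf-positive and 1470 Tnf-negative), the ratios were 1.92 (1.59 to 2.30) for Nfkbid, 1.66 (1.57 to 1.76) for Nfkbia, 1.60 for Nfkbiz and 1.58 for Tnfaip3. Among CD8 class cells without Nr4a1 (34 and 794), Nfkbia stood at 9.33 and 8.82, a ratio of 1.06 (0.890 to 1.25), and the ratios were 0.475 (0.128 to 1.23) for Nfkbid, 0.885 (0.585 to 1.29) for Nfkbiz and 0.972 (0.776 to 1.2) for Tnfaip3. All 4 intervals held 1. Of these, the Nfkbid ratio rests on 4 UMIs in the 34 Tnf-positive cells. Among CD4 class cells with Nr4a1 (135 and 1329), the ratios were 1.83 (1.62 to 2.05) for Nfkbid, 1.41 (1.34 to 1.48) for Nfkbia, 1.23 for Nfkbiz and 1.15 for Tnfaip3. Among CD4 class cells without Nr4a1 (31 and 366), Nfkbid stood at 2.52 and 0.973, a ratio of 2.59 (1.73 to 3.78), Nfkbiz had a ratio of 1.79 (1.37 to 2.30) and Tnfaip3 one of 1.78 (1.49 to 2.12), while the interval of Nfkbia held 1, at 1.16 (0.985 to 1.35). The differences between these divisions were not tested.

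**Figure D3:**
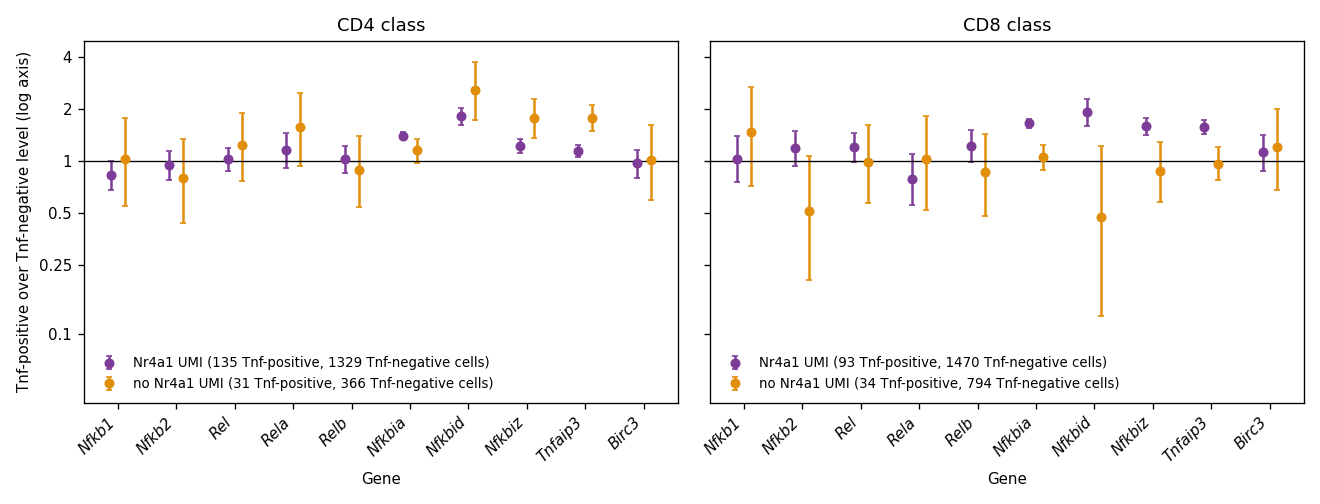
Ratio of the level in Tnf-positive over Tnf-negative cells for each member, on a log axis, in CD4 class (left) and CD8 class (right) cells with an Nr4a1 UMI (purple) and without one (orange); bars are 95% counting intervals and the line is 1. Without Nr4a1, Nfkbid lies at 2.59 in the CD4 class and at 0.475 in the CD8 class, where its interval holds 1.

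Other transcript classes of the CD4 lineage gave further contrasts between factors and inhibitors. These classes overlap and were set by thinned UMIs. Only 20 CD4 class cells had Foxp3, the factor of regulatory T cells, and in them Nfkbiz stood at 9.48 (7.68 to 11.6) and Nfkbia at 23.4 (20.6 to 26.6), both above the whole CD4 class (5.10 and 16.7). Rel and Nfkb1 stood at 0.879 (0.402 to 1.67) and 0.684 (0.275 to 1.41) there, below the whole class (2.26 and 1.57). Cells with Il4 or Il13 (74 cells) had Nfkb1 at 2.42 (1.99 to 2.92) and Nfkb2 at 1.26 (0.951 to 1.63). Cells with Xcl1, a chemokine gene (94 cells), had Nfkb2 at 2.18 (1.82 to 2.58) and Rel at 3.02 (2.60 to 3.49). Cells with the granzyme gene Gzmk (225 cells) were below the class value for all 10 members, with Nfkb1 at 0.934 (0.771 to 1.12). Cells with the cell cycle gene Mki67 (259 cells) had Tnfaip3 at 4.82 (4.55 to 5.09) against 7.24 in the whole class, and in the CD8 class (394 cells) at 4.13 (3.92 to 4.34) against 6.01. CD8 class cells with Ifng (579 cells) had Nfkbia at 17.6 (17.2 to 18.1) against 12.4.

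When the kept cells were clustered without the members, Csf2 and Tnf, 11 clusters of at least 50 cells resulted, and 2 CD4-rich clusters stood out for these genes. They are named by number and by leading genes. Cluster 4, led by Hs3st1, Pard3, Calca and Il17rb, held 547 cells and 22.1% of them had Csf2. Cluster 7, led by Krt17, Casc1, Dusp14 and Wisp1, held 458 cells and 16.2% of them had Csf2. One or the other was highest for 8 of the 10 members. Nfkbid stood at 3.64 (3.40 to 3.88) in cluster 7 and 3.33 (3.11 to 3.57) in cluster 4, with overlapping intervals, and at a median of 1.46 over the 11 clusters. Nfkbia likewise stood at 21.8 and 20.9, with a median of 14.5. The clusters parted for Rel, at 4.21 (3.96 to 4.48) in cluster 7 against 2.36 (2.17 to 2.56) in cluster 4, and for Nfkbiz, at 7.19 in cluster 7 and 8.26 in cluster 4. Rela and Relb were highest in cluster 2, led by Il23r, Il1r1, Prr29 and Il17re, at 1.08 and 2.09, with cluster 7 within the intervals. Rela varied least, 1.64-fold from highest to lowest cluster, and Nfkbid most, 11.4-fold. Cluster 11, led by S100a9, Ccl7, S100a8 and Lcn2, held 66 cells, 63 of them macrophage-transcript barcodes. Its Rel level of 3.10 (2.65 to 3.60) lay between those of clusters 7 and 4. For Nfkb1, Nfkbia, Nfkbid and Nfkbiz it ranked next after these clusters, with Nfkbia at 19.8 (18.7 to 21.0).

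**Figure D4:**
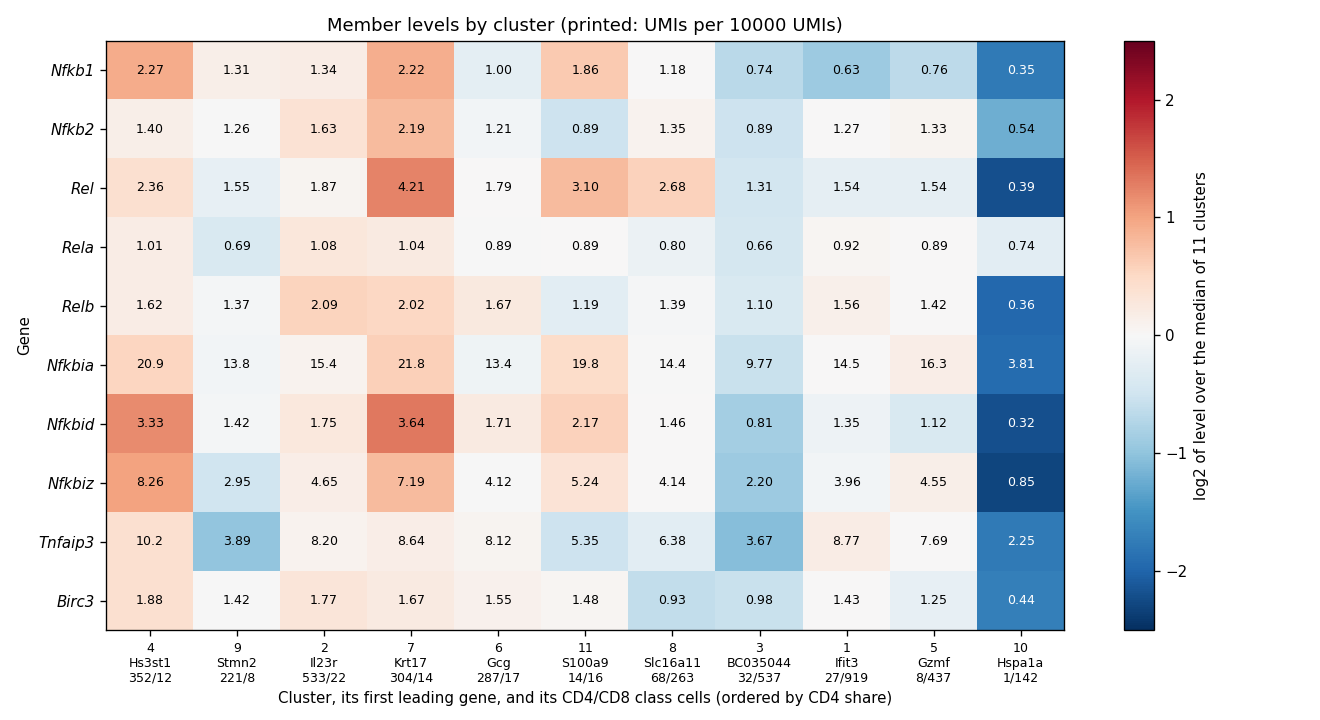
Level of each member in the 11 clusters of at least 50 cells, printed in UMIs per 10000 UMIs and coloured by the log2 of the level over the median of the clusters; below each cluster stand its number, its first leading gene and its CD4 and CD8 class cells. Clusters 4 and 7 hold the highest levels of most members, and cluster 10 the lowest of all members but Rela, with Nfkbia at 3.81.

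Cluster 10 was the lowest for 9 of the 10 members, all but Rela. It held 151 cells, 142 of them of the CD8 class, and was led by Hspa1a, Ifit1bl1, Qpct and Ccl5. Against the other 2249 CD8 class cells, Nfkbia stood at 3.87 against 12.7, 3.29-fold lower (2.90 to 3.75). Nfkbiz stood at 0.841 against 3.27, 3.89-fold lower, Nfkbid at 0.286 against 1.09, 3.80-fold lower, and Rel at 0.413 against 1.54, 3.73-fold lower. Tnfaip3 was 2.82-fold lower (2.38 to 3.36) and Rela was even, at 0.746 against 0.798. Other induced genes were mixed: Nr4a1 was 4.97-fold lower (3.82 to 6.61) and Junb 2.25-fold lower, whereas Hspa1a was 6.59-fold, Ccl5 2.14-fold and Jun 1.89-fold higher, and Cd69 had a ratio of 1.19. The median depth was 4063.5 UMIs in the cluster and 4993 in the other CD8 class cells. The parts of depth, dissociation and RNA quality in these levels were not tested. Tnf was found in 5.96% of the cells of cluster 10 and Csf2 in 0%.

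Within clusters, part of the Csf2 and Tnf differences remained; these values were added after the data were seen. In the 4 clusters with enough Csf2-positive CD4 class cells (clusters 4, 7, 8 and 9), Nfkbid had a ratio above 1 with its interval above 1 in all 4, from 1.44 to 2.86. Nfkb1 was above 1 in 4 of 4, from 1.19 to 1.46, with 1 interval above 1, so its ratios within clusters were below the 1.56 of the whole class. Rel had its interval above 1 in 3 of the 4 and stood at 0.871 (0.669 to 1.12) in cluster 4, which held 81 of the 192 positive cells. Nfkbiz ran from 1.001 in cluster 8 and 1.07 in cluster 4 to 1.94 in cluster 9, with 2 intervals above 1. Relb was below 1 in 4 of 4, from 0.734 to 0.974, and each interval held 1. For Tnf, Nfkbia and Nfkbid were above 1 in 5 of 5 clusters of the CD4 class, each with 4 intervals above 1. Their ratios were lowest in cluster 2, at 1.08 and 1.29, and highest in cluster 4, at 2.19 and 2.52. Nfkb1 had intervals below 1 in 2 of the 5, at 0.409 (0.202 to 0.741) in cluster 4 and 0.645 (0.407 to 0.976) in cluster 7, although its interval over the whole class held 1. In the CD8 class Nfkbia was above 1 in 4 of 4 clusters with every interval above 1 (1.22 to 2.12), and Nfkbid in 4 of 4 with 2 such intervals.

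For each member, the gene whose log2 level followed it most closely over the 11 clusters was taken from 8055 genes compared. The closest was Kdm6b for Nfkbia (Pearson r = 0.989), Gadd45b for Nfkbid (0.972), Csrnp1 for Nfkbiz (0.983) and Mxd1 for Tnfaip3 (0.968). For the factors it was Ndrg1 for Nfkb1 (0.988), Bhlhe40 for Nfkb2 (0.973), Stk11 for Rel (0.958), Rbm33 for Rela (0.95) and Tgif2 for Relb (0.982), and for Birc3 it was H3f3b (0.951). The clusters share 1 library, cluster 10 lies far from the rest, and cluster 11 holds mostly macrophage-transcript barcodes, so the values are descriptions. Without cluster 10 Kdm6b stood at 0.949, Ndrg1 at 0.994 and H3f3b at 0.829. Between members, Nfkbia and Nfkbiz were closest (0.974, and 0.940 without cluster 10), whereas Nfkb1 and Tnfaip3 stood at 0.573 and, without cluster 10, at 0.218.

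Clones offered another division of the same pool, by TCR. Of the clonotypes with 20 or more cells, 7 lay in the CD4 class (242 cells) and 7 in CD8 class cells (557 cells). Nfkbid varied widely between clones in both, from 0.579 (0.324 to 0.955) to 2.97 (2.18 to 3.94) in the CD4 class and from 0.492 (0.390 to 0.613) to 2.20 (1.47 to 3.15) in the CD8 class. The lowest of the CD8 clones was the largest, with 259 cells, and the highest held 21 cells. Relb varied 1.54-fold between CD4 clones and 1.42-fold between CD8 clones, and Nfkbia 2.21-fold and 1.98-fold. For Nfkbid, then, clones of 1 lineage class lay farther apart than the class values of 2.24 and 1.05.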

How the data were processed

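The deposited matrix gives whole UMI counts of each gene in each barcode, with no scaling. Cell Ranger and mm10 are named per the submitters' processing notes, without a version. The deposited contig table gave read and UMI counts and the authors' annotation of TCR chains. Barcodes with 500 or more genes and at most 10% mitochondrial UMIs were kept (5333). Csf2, Tnf and other transcript classes were set after thinning each cell to 2000 UMIs; no kept cell was shallower. Nr4a1 and Fos classes used all UMIs. Levels sum all UMIs of a class. No doublet caller was run; 301 cells with UMIs of both lineages and 780 with neither were left out of the classes, and 232 cells with 2 or more productive TRB chains were left out as an alternative.

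Cells were clustered after scaling to 10000 UMIs and log transformation, from 2000 variable genes without TCR and immunoglobulin segments, members, Csf2 and Tnf (30 components, 15 neighbours, Leiden resolution 0.8). Named genes were the 10 members, up to 4 genes per pathway list whose interval bound lay farthest from 1 among those 1.5-fold different with 50 or more UMIs, and the 3 genes most correlated with each member over clusters, of which the closest is printed. Members and lists were chosen with earlier results of these data known. A clonotype was the set of productive chains in cells with 1 TRB and at least 1 TRA chain. Gene positions are from GENCODE on mm10 and promoter windows from RefSeq. Ratios and their intervals were first run on counts simulated by the Poisson model that they assume, so spread between cells was not covered. Tools were Python 3.11.15, numpy 2.4.6, scipy 1.17.1, pandas 2.3.3, scanpy 1.11.5, scikit-learn 1.9.0, leidenalg 0.10.2 and matplotlib 3.10.9.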

Additional observations from a re-analysis of the deposited data

How the results depend on the processing

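All results rest on 1 pool, and intervals cover counting error only, so the spread between mice is not known. No paired analysis was possible because the RNA came from 1 pooled sample and no test was made. Of 708 member values under the alternatives, 569 were counted as within their interval, 134 as outside it and 5 as reversed. The cause was not tested. The 5 do not include every log2 ratio that crossed 0. Without cells with an Nr4a1 UMI, Tnfaip3 for Csf2 in CD8 went from 0.483 to -2.93. Relb for Csf2 in CD4 went from -0.226 to 0.335 and Nfkb2 for Tnf in CD8 from 0.139 to -0.955 in that setting. Tnfaip3 for Tnf in CD4 went from 0.308 to -0.075 without thinning. The cell filters, leaving out the cell with most UMIs of each gene and leaving out cells with 2 TRB chains moved none out of its interval, although without that top cell the count for Csf2 in CD8 was 4 in place of 6. Counts of higher members under the alternatives are given without the share of all genes at that setting. At the main setting 15.9% of genes were higher and 23.8% lower for Csf2 in CD8, with 31 positive cells. For Csf2 in CD4, with 192 positive cells, the shares were 6.81% and 11.1%. At 2-fold in place of 1.5-fold the counts of higher members were 2 for CD4 over CD8, 0 for Csf2 in CD4, 2 for Csf2 in CD8, 0 for Tnf in CD4 and 0 for Tnf in CD8. With 1 cell per clonotype they were 1 for Csf2 in CD4 (Nfkbid), 2 for Tnf in CD4 and 5 for Tnf in CD8, over 48, 27 and 17 positive cells, too few to set beside the main counts. Without thinning they were 2, 0 and 0. For Tnf in CD8, 0 members passed with classes set at 1000 UMIs and 1 each with classes set at 3000 UMIs, with the mean of per-cell levels, without cells with a Mki67 or Top2a UMI and, added after seeing the data, without cells with a Fos UMI, where the log2 ratio of Nfkbid was -0.032. Without cells with an Nr4a1 UMI the counts were 2 for Csf2 in CD8, 4 for Tnf in CD4 and 0 for Tnf in CD8. In that setting Nfkb2 and Nfkbia stood at -0.18 and -0.84 on the log2 scale for Csf2 in CD8 (3 positive cells, with no value for Rel and Nfkbiz), and Nfkbid and Nfkbiz at -1.08 and -0.18 for Tnf in CD8. The median over members of the fold from highest to lowest cluster was 5.74, and 2.14 at resolution 0.4 and 6.22 at 1.2.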

Other observations

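Cells outside the lineage classes also carried the members. The 780 cells with neither lineage had a median of 3955 UMIs, and their levels lay near those of the CD4 class: Nfkb1 stood at 1.68 (1.56 to 1.82), Nfkbid at 2.34 (2.19 to 2.5) and Nfkbia at 17.5 (17.0 to 17.9). The 301 cells with UMIs of both lineages, at a median of 7939 UMIs, stood between the classes for Nfkb1 at 1.29 (1.16 to 1.43), Nfkbid at 1.45 (1.32 to 1.60) and Nfkbia at 14.6 (14.1 to 15), but not for Relb, at 1.26 (1.14 to 1.40). In the 159 macrophage-transcript barcodes Nfkbia stood at 18.0 (17.2 to 18.7), Tnfaip3 at 6.00 (5.57 to 6.44) and Rel at 2.49 (2.22 to 2.78).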
